A study of Mus musculus with 15 samples.

Results

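Long intergenic noncoding RNAs (lincRNAs) are a class of annotation. It is meant for transcripts of genes that lie between protein-coding genes and are not annotated as translated. Not all members keep to this, since 10 lie inside or overlap a coding gene, as given below. Of the 3707 rows that the deposited count table gives the class lincRNA, 38 had 10 CPM (the count divided by all counts of its column and multiplied by 1000000) or more in at least 5 of the 15 columns. These 38 well-expressed lincRNAs are described here, out of 47729 annotated features in all. They were chosen by their level, so their being abundant is not a result, and 3069 of the 3707 lincRNA rows had at least 1 count somewhere. The same level was reached by 34.0% of the 22048 protein-coding rows, 1.03% of lincRNA rows, 0.624% of antisense rows and 4.15% of the 747 processed-transcript rows.

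The RNA came from aortic macrophages, sorted as F4/80+ CD64+ cells from female Apoe-/- mice, whose genotype field reads "Apoe dko mice" and which had a high fat diet for 4 weeks. Apoe-/- mice lack apolipoprotein E and form atherosclerotic plaques. All libraries share this genotype, diet and sort, and the labels set the groups apart by the sort for Olfr2, an olfactory receptor. Of the columns, 5 are labelled Olfr2- (samples 1, 3 and 4) and 10 are labelled Olfr2+ (samples 2, 3 and 4). The groups also differ in depth, as given below. Each sort held 100 to 200 cells from the pooled aortas of 4 mice, and the labels call the sorts technical replicates. P-values therefore reflect how these samples scatter, possibly for technical reasons alone, and not how mice differ.

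Facts of the libraries that touch the results are these. Summed per sample, Olfr2 itself had 76, 34 and 35 counts in the libraries labelled Olfr2- and 1, 9 and 8 in those labelled Olfr2+, which goes against the labels, so every direction below is that of the label only. The columns fell into sets of unlike depth: 7 Olfr2+ columns (all repeats of sample 2 and repeats 3A, 3B and 3C) had totals of 76.0 to 95.6 M (1 M being 1000000 counts), and the other 8 columns, which are all 5 Olfr2- columns and Olfr2+ 3D, 4A and 4B, had totals of 29.9 to 53.2 M. These are called the deep and the shallow columns. The 8 macrophage markers examined summed to between 1384 and 8327 CPM in Olfr2- columns, 2343 to 3170 CPM in shallow Olfr2+ columns and 7318 to 13920 CPM in deep columns. The 6 fibroblast markers summed to 2082 to 3808, 2114 to 4770 and 28230 to 34773 CPM in the same order, so this list of another cell type was high in the deep columns. None of these 14 markers was at 0 in any column. In bulk RNA, fewer cells of a type and less RNA per cell cannot be told apart.

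Many lincRNAs stay in the nucleus and act there as RNA. Malat1 gathers in nuclear speckles, where splicing factors are stored, Neat1 is the scaffold of paraspeckles, and Xist coats and silences the inactive X chromosome in female cells. Others are hosts from which microRNAs are cut, or carry sites that bind a microRNA. Macrophages and other blood cells are known for miR-142, and the miR-17 cluster is known for its role in proliferating blood cells.

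Sequences of 3 members show how differently such RNAs can work. 1700020I14Rik, also known as Cyrano or Oip5os1, is known for a long site that pairs with miR-7 and leads to the decay of that microRNA. Its longest transcript in the GENCODE M21 annotation (build GRCm38, chromosome 2, plus strand) held 2 matches to the miR-7a-5p seed, and the one at transcript positions 2934 to 2959 of 8300 also matched a further 13 bases of the microRNA. The seed, bases 2 to 8 of the microRNA, and its match in the transcript are in capitals:

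miR-7a-5p: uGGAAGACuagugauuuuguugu

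1700020I14Rik site: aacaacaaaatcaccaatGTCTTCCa

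Mir142hg gives rise to 1 hairpin and Mir17hg to a cluster of them, both read here from RefSeq on build GRCm38.p6, with seeds in capitals. The hairpin arms of Mir142hg lie at chr11:87756867-87756887 and chr11:87756903-87756925 on the plus strand. The arms of Mir17hg shown here lie on the plus strand of chromosome 14, from chr14:115043684-115043706 for miR-17-5p to chr14:115044476-115044496 for miR-92a-3p. They are shown because the cluster falls into few targeting families: miR-17-5p and miR-20a-5p share the seed AAAGUGC, and miR-19a-3p and miR-19b-3p share GUGCAAA.

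miR-142a-5p: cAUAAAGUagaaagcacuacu

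miR-142a-3p: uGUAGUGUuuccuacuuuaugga

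miR-17-5p: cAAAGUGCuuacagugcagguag

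miR-20a-5p: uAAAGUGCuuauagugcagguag

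miR-19a-3p: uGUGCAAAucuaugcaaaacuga

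miR-19b-3p: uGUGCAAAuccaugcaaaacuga

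miR-18a-5p: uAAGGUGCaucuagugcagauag

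miR-92a-3p: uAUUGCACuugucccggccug

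The counts below are of the host transcripts, and mature microRNAs were not measured.

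Smart-Seq2 copies RNA from a primer that pairs with runs of A, normally the tail of a messenger RNA. Of the 37 members matched to the annotation, 5 (13.5%) held a run of at least 15 A in their longest transcript, against 1.95% of all 5854 lincRNA genes there. The members' longest transcripts were also longer, with a median of 2896 against 984 bases. Malat1, whose end is known to be a folded helix in place of a tail, held a run of 12 A ending 298 bases before its end, and Xist held a run of 17 A near its start. Both are on the minus strand, of chromosomes 19 and X, and are printed as transcribed with the run in capitals:

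Malat1: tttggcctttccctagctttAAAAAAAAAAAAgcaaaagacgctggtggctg

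Xist: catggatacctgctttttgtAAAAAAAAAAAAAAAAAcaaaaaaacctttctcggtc

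Whether the primer used these runs was not tested.

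Malat1 was the most abundant member, with 59.3% of the members' summed CPM. It stood at 14998, 9899, 10394, 9827 and 20948 CPM in Olfr2- 1A, 3A, 3B, 4A and 4B, and at 12557, 7424 and 10338 CPM in Olfr2+ 3D, 4A and 4B. In the 7 deep Olfr2+ columns it ranged from 2127 to 4513 CPM with a median of 3482. Each deep column was therefore below each shallow column, while the shallow columns of both labels overlapped.

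Neat1 was the steadiest member, with a coefficient of variation of 0.524 over the 15 columns. It had 2431, 722, 239, 638 and 762 CPM in the 5 Olfr2- columns, in the order just given, and 1695, 1353 and 2122 CPM in the shallow Olfr2+ columns. The deep columns ran from 847 to 2805 CPM with a median of 1610. One Olfr2- column, 1A, was above all Olfr2+ columns but 2C, and the other 4 were below all 10 of them. The ratio of Malat1 to Neat1 accordingly ran from 6.17 to 43.5 in Olfr2- columns, from 4.87 to 7.41 in shallow Olfr2+ columns and from 0.899 to 4.64 in deep columns.

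Xist had 273, 459, 685, 446 and 233 CPM in the Olfr2- columns and 945, 1099 and 581 CPM in the shallow Olfr2+ columns. In the deep columns it ranged from 5.38 to 221 CPM with a median of 161. All mice were female. Column Olfr2+ 2A, at 5.38 CPM from 462 counts, was the lowest of all and lay far under the other repeats of sample 2, which had 221, 203 and 120 CPM. Each of the deep columns was below all 8 shallow ones.

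Gm26917 had no deep column near any shallow one. In the GRCm38 annotation it ends 12 bases before the RefSeq sequence Rn18s-rs5, an 18S ribosomal RNA related sequence, and its longest transcript is 69.1% G and C. It had 2183, 1467, 3850, 3451 and 1868 CPM in Olfr2- columns, and 1994, 14358 and 3385 CPM in Olfr2+ 3D, 4A and 4B. Deep columns ran from 34.9 to 158 CPM with a median of 89.7, far below each shallow column. Rows classed as ribosomal RNA moved the same way: they took 0.685 to 3.56% of counts in shallow columns and 0.0264 to 0.174% in deep ones. Mitochondrial ribosomal RNA took 5.89 to 11.04% in shallow columns and 0.756 to 3.45% in deep ones. The part of ribosomal RNA in the counts of Gm26917 was not tested. Gm42418 and AY036118, models that overlap Rn18s-rs5 by 68.0% and 100% of their exonic length, had 0 counts in all columns.

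**Figure D1:**
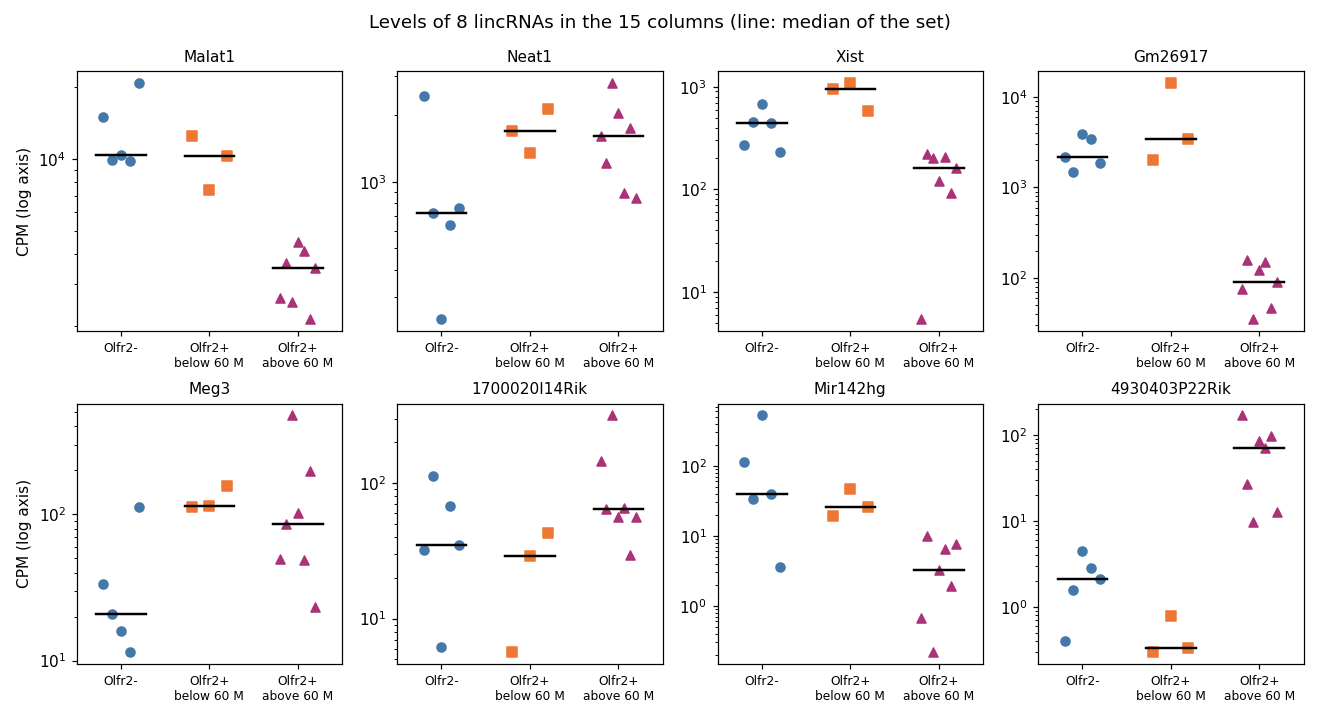
Levels of 8 lincRNAs in CPM on log axes, 1 point per column of counts, with columns split into Olfr2-, Olfr2+ below 60 M counts and Olfr2+ above 60 M counts, and a line at each set's median. Malat1, Xist and Gm26917 are lower in each of the 7 deep columns than in any of the 8 shallow ones, 4930403P22Rik is higher, and Neat1 is not split by depth.

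Levels of different genes can be set side by side only per length. Per kilobase of exon, over the mean of the 15 columns, Malat1 had 1141 CPM, Gm26917 666, Mir142hg 208, Gm28875 160, AW112010 75.5, Neat1 67.8 and, after 5 others, Xist 21.3. Part of this order came from single columns: Mir142hg, with 269 bases of annotated exon, had 62.8% of its CPM in Olfr2- 3B. As medians per kilobase, Mir142hg had 145 CPM and Neat1 34.7 in Olfr2- columns, 96.3 and 81.6 in shallow Olfr2+ columns, and 12.2 and 77.5 in deep columns, where the order was reversed. Malat1 had the highest of these medians in each set, at 1488, 1481 and 499 CPM per kilobase.

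Meg3, the maternally expressed noncoding RNA of the imprinted Dlk1-Dio3 region, averaged 104 CPM. It had 33.2, 20.7, 15.9, 11.4 and 112 CPM in the Olfr2- columns and 112.9, 114 and 156 CPM in the shallow Olfr2+ columns. In the deep columns it ran from 23.3 to 475 CPM with a median of 85.9. The 3 shallow Olfr2+ columns were thus all above the 5 Olfr2- columns, though only just above Olfr2- 4B.

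1700020I14Rik averaged 71.2 CPM. It had 32.0, 114, 6.19, 67.7 and 34.8 CPM in the Olfr2- columns, 5.64, 29.1 and 42.9 CPM in the shallow Olfr2+ columns, and 29.5 to 317 CPM with a median of 64.4 in the deep ones. The sets overlapped.

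The microRNA hosts were uneven. Mir142hg had 114, 34.1, 527, 39.1 and 3.56 CPM in the Olfr2- columns and 19.4, 46.4 and 25.9 CPM in the shallow Olfr2+ columns, and no deep column exceeded 9.98 CPM. The repeats of Olfr2- sample 3 held both 34.1 and 527 CPM. Mir17hg had 3.28, 103, 65.1, 12.1 and 3.99 CPM in Olfr2- columns and 1.12, 69.5 and 1.10 CPM in shallow Olfr2+ columns. In deep columns its median was 0.419 CPM and its highest value 64.3.

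LincRNAs known from immune or stress responses were of middling level. Lncpint, a target of p53, averaged 60.9 CPM, with 18.3 to 127 CPM in Olfr2- columns, 32.1 to 212 in shallow Olfr2+ columns and 0.514 to 153 in deep ones. AW112010, which is induced in macrophages by inflammatory signals, averaged 60.7 CPM, with 3.08 to 305, 9.55 to 88.9 and 1.05 to 104 CPM in the same sets. Mirt1, named for its rise after myocardial infarction, was near the bottom, with 1.20 to 24.1, 10.8 to 43.8 and 0.155 to 53.2 CPM. In none of the 3 did the labels separate the columns.

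The other members among the 12 of highest mean level were Gm28875, Gdap10, AI662270 and 1810058I24Rik. Gm28875 averaged 190 CPM, but 69.0% of its summed CPM came from Olfr2- 4B, with 1964 CPM. Gdap10, which lies within the gene of the NAD-synthesis enzyme Nampt, ranged from 8.64 to 249 CPM in Olfr2- and from 2.52 to 334 CPM in Olfr2+ columns. AI662270 ranged from 21.5 to 256 and from 7.08 to 288 CPM, and 1810058I24Rik from 4.83 to 152 and from 1.05 to 140 CPM. The ranges of the labels overlapped for the last 3.

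Some members were carried by single columns and others were spread. Of the 38 members, 8 had more than 50% of their CPM, summed over 15 columns, in 1 column, and in 18 the highest column was at least 10 times the median column. Only 4 (Malat1, Gm26917, Neat1 and Meg3) reached 10 CPM in all 15 columns, while 18 did so in 5 to 7 columns. A530013C23Rik had 81.7% of its CPM in Olfr2- 4B, at 698 CPM, and 4.59 to 13.8 CPM in the other 4 Olfr2- columns. D730003I15Rik had 80.2% in that same column, at 406 CPM, and Gm16973 had 76.9% in Olfr2- 1A, at 397 CPM. For these 3, the second repeat or the other samples of the same label did not show the level of the highest column.

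**Figure D2:**
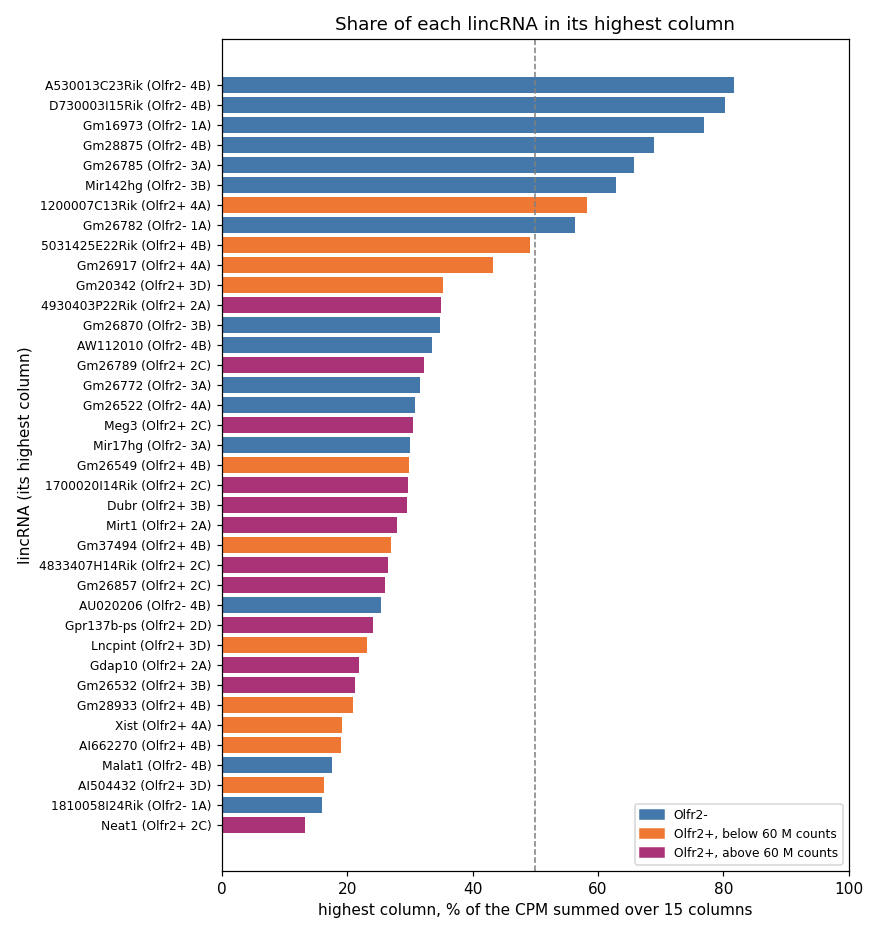
Share of each lincRNA's CPM, summed over the 15 columns, that lies in its highest column, in percent, with that column's name beside the symbol and bars coloured by set. The dashed line marks 50%: 8 lincRNAs lie past it, from A530013C23Rik at 81.7% to Gm26782 at 56.4%, and Neat1 is the most even at 13.3%.

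Over the 38 members, columns of the same sample were hardly more alike than columns of other samples. On log2(CPM + 1), the median Pearson correlation across members was 0.642 for the 12 pairs of columns of the same sample within a depth set, 0.599 for the 22 pairs of other samples of the same label and set, and 0.647 for the 15 shallow pairs across labels. For the 3 pairs of the same sample in different depth sets, which are the repeats of Olfr2+ sample 3, it was 0.424. These correlations share a few abundant genes and are given as a description.

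**Figure D3:**
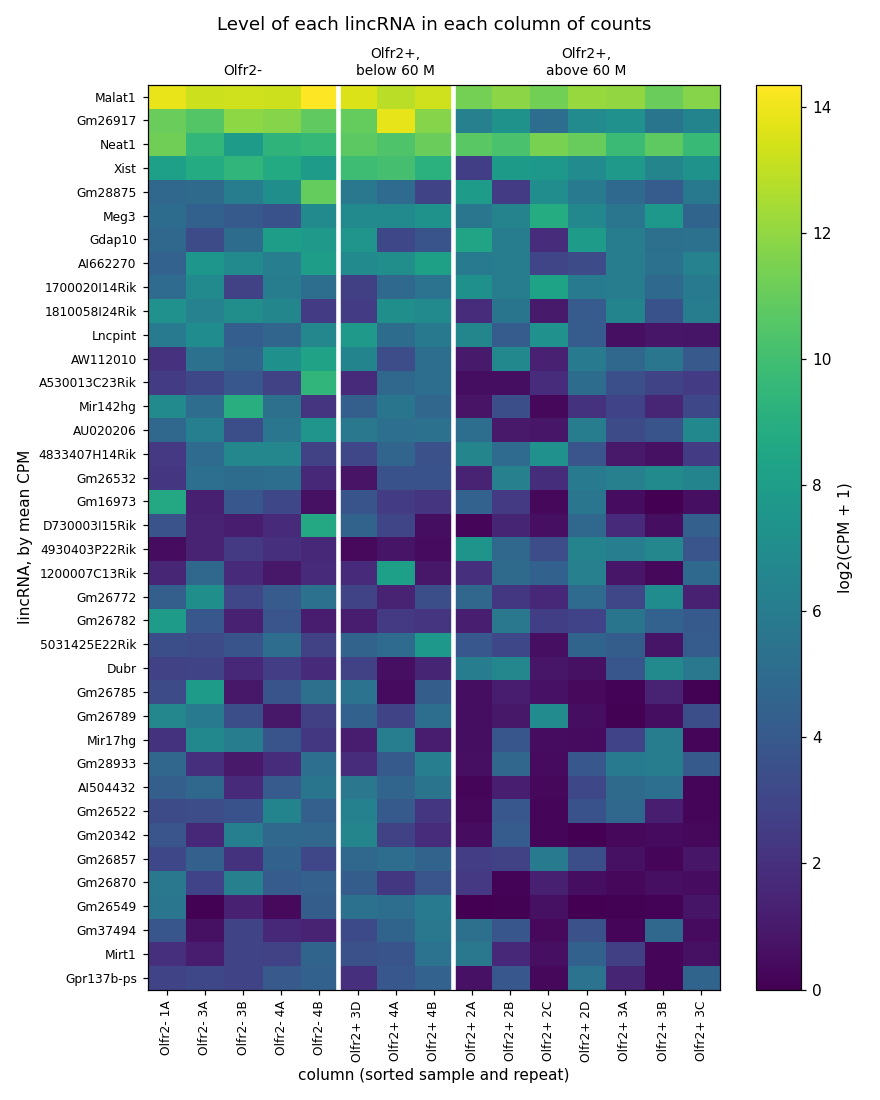
Level of the 38 lincRNAs, as log2(CPM + 1), in each of the 15 columns, ordered by mean CPM from Malat1 at the top, with white lines between Olfr2-, Olfr2+ below 60 M counts and Olfr2+ above 60 M counts. Below the top rows some bright cells stand in single columns, and 4930403P22Rik is bright only at the right.

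The members took 2.14, 1.50 and 2.12% of all counts in Olfr2- samples 1, 3 and 4, and 0.674, 0.716 and 2.21% in Olfr2+ samples 2, 3 and 4. The means were 1.92 ± 0.366% (SD, n = 3) and 1.20 ± 0.875% (SD, n = 3), a difference of -0.72 percentage points (exact two-sided permutation test, p = 0.4, where 3 against 3 cannot go below 0.1). Olfr2+ sample 4, the one with shallow columns only, was the highest of all 6. Among shallow columns the difference was 0.11 points (exact permutation p = 0.8), and without Malat1 it was 0.055 points (exact permutation p = 1), so the sign depended on Malat1 and on the deep columns. Without Olfr2+ sample 4 the difference was -1.22 points and without Olfr2+ sample 2 it was -0.457.

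**Figure D4:**
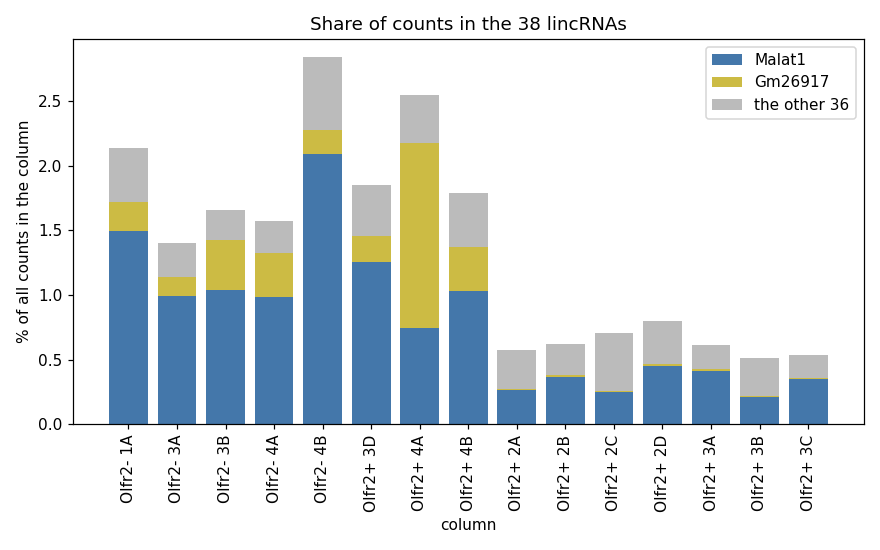
Percent of all counts that fell on the 38 lincRNAs in each column, with Malat1, Gm26917 and the other 36 stacked. The 7 deep columns, at the right, hold 0.509 to 0.796%, and the 8 shallow columns hold 1.40 to 2.84%.

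The main comparison asked which lincRNAs differ between the libraries labelled Olfr2+ and those labelled Olfr2-. No member passed in either direction at an adjusted p of 0.05 in edgeR's quasi-likelihood test with Benjamini-Hochberg adjustment over all 24362 genes: 0 of 38 were higher, where 1.12% of all genes were, and 0 were lower, where 0.46% were. At an unadjusted p under 0.05, 5 members were higher, against 17.1% of all genes, and 0 were lower, against 15% of all genes. DESeq2 called 5 members higher, against 12.5% of all genes, and 0 lower, against 8.19%, and limma-voom called none, as it did for all genes. Both counts of 5 include 4930403P22Rik and Dubr, which reached 10 CPM in deep Olfr2+ columns only. That part of the counts was fixed by the rule, and nothing is read from them. The members' median log2 fold change was 0.81 in edgeR, beside 0.24 over all genes tested, and 25 of 38 were above 0. Scaled by library totals alone these medians were -0.31 and -0.88, with 15 of 38 members above 0, and again 0 members were called higher or lower, against 0.353% and 1.27% of all genes. On that scale 2 members were higher and 8 lower at an unadjusted p under 0.05 in edgeR, beside 31.9% of all genes in both directions together. The higher ones include 4930403P22Rik. The lower ones include Mir142hg, Gm26785 and Gm26870, which reached 10 CPM in shallow columns only. All genes leaned lower too, with 38.8% of their fold changes above 0 on that scale. Nothing is read from these counts either. With TMM set on the 8504 genes of a mean of at least 10 CPM, the members' median was -0.65, beside 0.17 over those genes, with 13 of 38 above 0. The sign of the members' median therefore turned with the scaling, and each fold change below moves with it. Set beside all genes, the members' median was the higher one with TMM and by library totals. It was the lower one in the last setting.

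4930403P22Rik, a noncoding RNA 2.31 kb from the chromatin regulator gene Kansl3, had the largest fold change. It and Dubr reached 10 CPM in deep columns only, so the rule that kept them had already fixed where they are high, and their folds and p-values in favour of the Olfr2+ label or of deep columns are a description and support nothing. Its levels, scaled by edgeR's TMM factors, were 0.238, 2.00 and 1.66 CPM in Olfr2- samples 1, 3 and 4 and 145, 75.4 and 0.666 CPM in Olfr2+ samples 2, 3 and 4. Only the 2 Olfr2+ samples with deep columns were high, and sample 4 lay among the Olfr2- samples. The log2 fold change was 5.82 (SE 1.68, adjusted p = 0.063 in edgeR), and it was called in DESeq2 (adjusted p = 0.00084), without a filter on low counts (edgeR adjusted p = 0.028), with each column as a sample (0.031) and without Olfr2+ sample 4 (0.041). In shallow columns alone its log2 fold change was -1.36 (SE 1.06, adjusted p = 0.65 in edgeR).

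Dubr, a noncoding RNA known from muscle differentiation, was also high in samples 2 and 3 of Olfr2+ and not in sample 4, though its deep columns 2C and 2D, at 0.792 and 0.543 CPM, were below all Olfr2- columns. It had 3.67, 3.75 and 2.59 TMM-scaled CPM in the Olfr2- samples and 87.8, 72.8 and 1.21 in the Olfr2+ samples, with a log2 fold change of 4.01 (SE 1.50, adjusted p = 0.095 in edgeR). DESeq2 (adjusted p = 0.0093) and edgeR without Olfr2+ sample 4 (adjusted p = 0.049) called it. In shallow columns its log2 fold change was 0.22 (SE 1.27).

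Meg3 was higher in every Olfr2+ sample than in any Olfr2- sample. It had 20.1, 14.2 and 36.2 TMM-scaled CPM against 371, 131 and 153, means of 23.5 ± 11.4 and 218 ± 133 (SD, n = 3). By library totals the order was the same, with 33.2, 18.9 and 54.9 against 180, 92.2 and 132 CPM. The log2 fold change was 3.21 (SE 1.08, adjusted p = 0.081 in edgeR), DESeq2 gave an adjusted p of 0.0089, and in shallow columns alone the log2 fold change was 2.62 (SE 1.22, adjusted p = 0.475 in edgeR). Its direction was the same in the shallow columns. The fibroblast markers were high in the deep columns and summed to similar ranges in the shallow columns of both labels, as given above. Their part in the difference was not tested.

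Neat1 had 1472, 405 and 457 TMM-scaled CPM in the Olfr2- samples and 3959, 1731 and 1952 in the Olfr2+ samples, so the samples did not overlap on this scale. Its log2 fold change was 1.71 (SE 0.73, adjusted p = 0.12 in edgeR) and 1.42 (SE 0.70) in shallow columns, but -0.20 with the scaling set on genes of at least 10 CPM. By library totals alone the samples overlapped, with 2431, 541 and 692 against 1918, 1220 and 1694 CPM.

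Malat1 had 9078, 7555 and 9677 TMM-scaled CPM in the Olfr2- samples and 6902, 6286 and 10044 in the Olfr2+ samples, which overlapped. By library totals they did not, with 14998, 10084 and 14652 against 3345, 4429 and 8715 CPM. On the log2 scale the TMM-based difference was -0.18 (SE 0.51, adjusted p = 0.80 in edgeR), but 0.51 (SE 0.36) in shallow columns and -1.27 by library totals, so no direction can be given. Xist had 165, 407 and 233 against 290, 358 and 1002, with a log2 fold change of 1.03 (SE 0.86, adjusted p = 0.37 in edgeR) and 1.96 (SE 0.81) in shallow columns, but -0.15 with the scaling set on genes of at least 10 CPM.

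1200007C13Rik had 1.17, 13.3 and 0.983 against 66.5, 12.5 and 176 TMM-scaled CPM, with a log2 fold change of 4.04 (SE 1.45, adjusted p = 0.090 in edgeR) and 4.13 in shallow columns, where it rested on Olfr2+ 4A at 273 CPM. DESeq2 called it (adjusted p = 0.013), as it did Gm37494 (log2 fold change 2.92, SE 1.45 in edgeR, DESeq2 adjusted p = 0.026). Among Olfr2- columns, 1200007C13Rik reached 10 CPM only in 3A and Gm37494 only in 1A. The rule therefore favoured the Olfr2+ direction for both, and nothing is read from these calls. 5031425E22Rik, next to the chromatin gene Kmt2e, stood at 2.56 (SE 1.32) in edgeR. Gm37494, 5031425E22Rik and Gm28933 joined Neat1 and Meg3 as the 5 members with all 3 Olfr2+ samples above all 3 Olfr2- samples on the TMM scale, against 13.5% of all genes. By library totals Meg3 was the only member so separated, against 6.21% of all genes. As the rule favoured Gm37494 in this direction, nothing is read from the count of 5.

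At the other end, no fold change came near the threshold. The lowest log2 fold changes were those of Gm26785 at -2.82 (SE 1.44), Gm16973 at -2.46 (SE 1.48), Gm26870 at -2.11 (SE 1.40) and Mir142hg at -2.03 (SE 1.24), then D730003I15Rik at -1.90 (SE 1.45) and A530013C23Rik at -1.72 (SE 1.36). The smallest of their adjusted p-values in edgeR was 0.17. Gm26870 was the 1 member with all Olfr2+ samples below all Olfr2- samples on the TMM scale, against 22.1% of all genes. By library totals Malat1, Gm26785 and Gm20342 joined it, 4 of 38 against 29.8%. Gm26785, Gm26870 and Mir142hg reached 10 CPM in shallow columns only, and all Olfr2- columns are shallow. The rule therefore favoured this direction for them, and nothing is read from these counts. Gm26870 had 32.0, 23.7 and 12.3 against 3.11, 3.60 and 9.07 TMM-scaled CPM. Its exons overlap those of other genes by 54.6%, so its reads may not be its own. Gm16973 turned to 1.77 without Olfr2- sample 1, and A530013C23Rik to 2.06 and D730003I15Rik to 1.47 without Olfr2- sample 4.

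**Figure D5:**
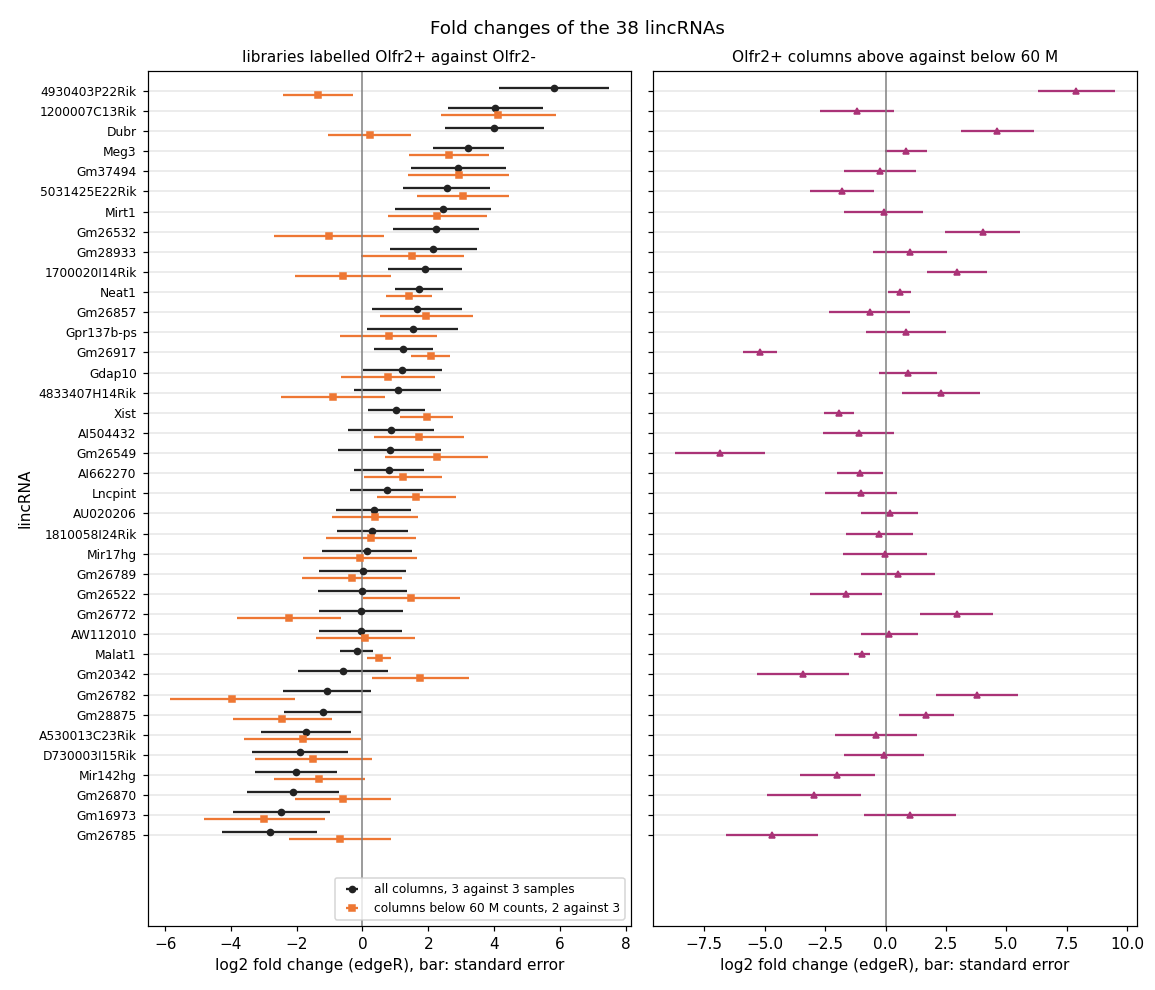
Log2 fold changes from edgeR with standard errors for the 38 lincRNAs, ordered by the main comparison. Left, libraries labelled Olfr2+ against Olfr2- in all columns (black) and in columns below 60 M counts (orange). Right, Olfr2+ columns above against below 60 M counts. 4930403P22Rik is at 5.82 in black, -1.36 in orange and 7.90 at the right.

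Restricted to shallow columns, 2 Olfr2+ sums were set against 3 Olfr2- sums. Of the 38 members 0 were called higher and 0 lower by edgeR, and 0% of all 29989 genes were called either way. At an unadjusted p under 0.05, 5 members were higher, against 4.85% of all genes, and 0 were lower, against 5.58%. These 5 were Gm26917 at 2.08 (SE 0.60), Xist, Meg3, 1200007C13Rik and 5031425E22Rik at 3.05 (SE 1.41), and their smallest adjusted p in edgeR was 0.41. Some of them leaned on single columns. Gm26917 had 14358 CPM in Olfr2+ 4A, beside 1994 and 3385 in 3D and 4B. 1200007C13Rik had 273 CPM in 4A and, among Olfr2- columns, reached 10 CPM only in 3A. 5031425E22Rik had 202 CPM in 4B, where the next Olfr2+ column of any depth had 31.8. The rule thus favoured part of the count of 5. The share of all genes is not under the same choice by level, and nothing is read from that count. The median log2 fold change of the members was 0.44, beside -0.43 over all genes.

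Depth itself was compared within the Olfr2+ label, as sums of samples 2 and 3 (deep) against 3 and 4 (shallow). Sample 3 is in both arms, so the 4 sums are not all separate sorts. In edgeR, 4930403P22Rik was higher in deep columns (1 of 38, against 2.83% of all 22033 genes) and Gm26917 was lower (1 of 38, against 1.65%). The first count is fixed by the rule, as said above, and nothing is read from it. The log2 differences were 7.90 (SE 1.58, adjusted p = 0.021) and -5.21 (SE 0.71, adjusted p = 0.0032). At an unadjusted p under 0.05 in edgeR, 5 members were higher, against 15.7% of all genes, and 5 were lower, against 21.4%. Among the higher, 4930403P22Rik and Dubr reached 10 CPM in deep columns only, and Gm26782 in no shallow Olfr2+ column. Among the lower, Gm26785 and Gm26549 reached it in shallow columns only. These counts are thus partly fixed by the rule, and nothing is read from them. The median over the members was -0.08, beside 0.19 over all genes. By library totals alone 4930403P22Rik was at 7.21 with an edgeR adjusted p of 0.056. Leaving out any sum leaves 1 sum in an arm, so no calls are given for such fits.

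4930403P22Rik had 169, 26.7, 9.57 and 84.0 CPM in Olfr2+ 2A to 2D and 69.8, 97.6 and 12.6 CPM in 3A to 3C. In 3D, a repeat of the same sample 3, it had 0.295 CPM, from 10 counts, and in 4A and 4B 0.772 and 0.335 CPM. The Olfr2- columns had 0.394 to 4.49 CPM. It was the only one of the 38 whose 7 deep columns all lay above all 8 shallow ones, and the only one for which they lay above the 3 shallow Olfr2+ ones. The shares of all genes were 1.59% and 3.24%, but they are not under the same choice, and nothing is read from the counts.

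Lower in each deep column than in each of the 8 shallow ones were Malat1, Gm26917 and Xist, 3 of 38, against 9.89% of all genes. The log2 differences between deep and shallow Olfr2+ sums were -0.97 (SE 0.32, edgeR adjusted p = 0.071) for Malat1 and -1.92 (SE 0.63, edgeR adjusted p = 0.072) for Xist. By library totals alone Malat1 passed with Gm26917, at -1.69 (SE 0.28, edgeR adjusted p = 0.028), which makes 2 lower, against 0.182% of all genes, and 0 higher, against 0.504%. Against the 3 shallow Olfr2+ columns only, AI662270, Mir142hg and Gm26549 joined them, giving 6 of 38 against 20.7% of all genes, of which Mir142hg and Gm26549 reached 10 CPM in shallow columns only.

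Gm26549 had 39.8, 34.9 and 61.0 CPM in the shallow Olfr2+ columns and 0 to 0.777 CPM in the deep ones. It is the only member with a count of 0 in a column, Olfr2+ 2D. Its Olfr2- columns were split, with 47.8 and 17.7 CPM in 1A and 4B and 0.0752 to 1.54 CPM in the other 3. The log2 difference between deep and shallow Olfr2+ sums was -6.85 (SE 1.86). Gm26549, Mir142hg, Gm26785 and Gm26870 reached 10 CPM in shallow columns only, so their being low in deep columns is likewise fixed by the rule and is given as a description.

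Other members of high ratio in deep columns were Dubr at 4.62 (SE 1.51), Gm26532 at 4.02 (SE 1.54), Gm26782 at 3.79 (SE 1.69), 1700020I14Rik at 2.97 (SE 1.24) and Gm26772 at 2.94 (SE 1.50), all as log2 differences. Those of low ratio were Gm26785 at -4.70 (SE 1.92), Gm20342 at -3.43 (SE 1.90), Gm26870 at -2.96 (SE 1.94) and 5031425E22Rik at -1.81 (SE 1.33). None of these 9 passed in edgeR. Without the shallow sum of sample 4, the shallow arm holds only Olfr2+ 3D, a repeat of sample 3. No counts of calls are given for that fit.

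Whole-class values went with these sets. All lincRNA rows together took 1.52 to 3.17% of counts in Olfr2- columns, 1.95 to 2.67% in shallow Olfr2+ columns and 0.566 to 0.907% in deep columns. Protein-coding rows took 79.5 to 85.6%, 78.5 to 80.4% and 94.6 to 97.5%. The number of lincRNAs with at least 1 count ran from 530 to 1612, with a median of 683, in deep columns, from 1493 to 2199, with a median of 2005, in shallow Olfr2+ columns, and from 1482 to 2585, with a median of 2337, in Olfr2- columns. The highest deep column, at 1612, thus lay within the shallow ranges although the deep columns had more counts.

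Genes known to work with the members were read as fixed lists. Of the 13 protein genes listed for paraspeckles, where Neat1 is the scaffold, 0 were called by edgeR in either direction in the main comparison, with a median log2 fold change of 0.64 beside 0.24 over all genes. Of 12 nuclear speckle genes 1 was higher, Srsf2, with a median of 0.90, and of 10 partners of Xist 0 were called, with a median of 0.85. Of 10 imprinted protein-coding genes 1 was higher, Cdkn1c, with a median of 2.23, and of the 9 imprinted noncoding genes, Meg3 included, 0 were called, with a median of 2.94. For these lists the share called higher over all genes was 1.12%. Srsf2 was at 5.05 (SE 1.31) in the main comparison, 5.38 (SE 0.97) between deep and shallow Olfr2+ sums and 0.31 (SE 1.49) between labels in shallow columns. Cdkn1c was at 5.28 (SE 1.36), -0.25 (SE 1.04) and 5.51 (SE 1.46, adjusted p = 0.41 in edgeR) in the same order. Of the 10 imprinted protein-coding genes, 5 were above 0 in shallow columns. Of 16 tested genes on the snoRNA host list, 10 microRNA hosts and 8 lincRNAs of immune responses, 0 were called, with medians of 0.09, 0.26 and 0.46. The first of these lists also holds Mir17hg, a microRNA host, which is thus counted in the second as well. In shallow columns no gene of these lists was called, where 0% of all genes were. There the median was 0.25 for the imprinted noncoding and -0.44 for the imprinted protein-coding genes, beside -0.43 over all genes. For paraspeckle genes, speckle genes and Xist partners it was 0.32, 0.33 and 0.74. Between deep and shallow Olfr2+ sums, the imprinted noncoding and protein-coding medians were 1.11 and 3.10, beside 0.19 over all genes.

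Position in the genome is taken from GENCODE M21. Of the 37 matched members, 24 lie within 5 kb of a protein-coding gene and 10 lie inside or overlap one, and 5 are on chromosome 19, among them Malat1 and Neat1. Exons of 16 members overlap those of another gene, 7 of them by more than 10% of their length, and the libraries do not mark the strand. Malat1 and Neat1 overlap by 7.72 and 1.85% only, Xist by 12.6%, partly with its antisense partner Tsix, and 4833407H14Rik by 67.5%. Values of overlapping members may hold reads of their partners. In 5 members the annotation gives a class other than lincRNA, among them Gm26549 and Gpr137b-ps.

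The coding genes nearest to the members were compared in the column where each member was highest. A530013C23Rik lies 0.759 kb from Cebpb, a macrophage transcription factor, which had 2050 CPM in Olfr2- 4B, its second-highest column, against a median of 643 CPM. D730003I15Rik lies 6.42 kb from Atf3, a stress-induced transcription factor, which in that same column had its lowest level, 243 CPM, against a median of 1056. 4930403P22Rik was highest in Olfr2+ 2A, where Kansl3 was at its lowest, 2.23 CPM, against a median of 31.2. Over the 36 neighbours with any count, 1 had its highest column where the lincRNA had its own: Gm10715, which overlaps Gm26870.

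Members just inside the rule, by their fifth-highest column, were D730003I15Rik at 11.6 CPM, Mirt1 at 12.0 and Gm16973 at 12.3. Just outside lay Gm26825 at 9.58 CPM, Gm27010 at 9.28 and Gm26860 at 9.03. Gm27010 reached 208 CPM in its highest column and averaged 20.1 CPM, more than several members, among them Gpr137b-ps at 12.0 CPM.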

How the data were processed

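RNA of sorted aortic macrophages was sequenced by Smart-Seq2, with 18 cycles of cDNA and 9 cycles of library amplification per the labels' protocols, which carries no molecular identifiers and no strand. The authors deposited 1 table of whole-number counts, with 15 columns. DRAGEN, STAR 2.7.1, DESeq2 1.34 and the build GRCm39 appear, with no role, in the submitters' processing notes. Of the gene identifiers 99.1% matched GENCODE M21 of build GRCm38 (82.1% with the same version), and 37 of the 38 members matched, so no member coordinates are printed.

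Titles were read as sample number and repeat letter, which the labels do not state, and repeats were summed, giving 3 samples against 3 from 8 library names. Depth was 29.9 to 95.6 M counts (1 M is 1000000) per column, and 60 M separates the depth sets. CPM values divide by column totals. edgeR 4.0.16 (quasi-likelihood, TMM, filterByExpr, Benjamini-Hochberg over all genes, threshold 0.05) gave the main fits in R 4.3.3, and its standard errors come from the F statistic. DESeq2 1.42.0 and limma 3.58.1 (voom), other scalings and filters, each column as a sample, depth as a covariate and left-out samples were alternatives. On simulated data for the Olfr2 comparison (24362 genes), the main fit recovered 0 of 50 genes changed by a log2 of 1, 2 of 50 at 3, 25 of 50 at 5 and 45 of 50 at 7, with 2 of 24162 unchanged genes called. For the depth comparison (22033 genes) it recovered 0, 2, 18 and 37 of 50, with 4 of 21833 called.

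The members, gene lists and depth sets were chosen with earlier results of these data known. Members named with values are the 12 of highest mean CPM, the 6 largest and 6 smallest fold changes, the 6 highest and 6 lowest ratios of deep to shallow columns, the 5 steadiest, list members, and the 3 just inside and 3 just outside the rule. Gm28933 and the neighbours Cebpb, Atf3, Kansl3 and Gm10715 are described by position or by non-overlap, chosen after their values were seen.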

Additional observations from a re-analysis of the deposited data

Results flagged for a closer look

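In each label, the columns of each lincRNA were searched for 1 value far from the rest, as the gap to its nearest neighbour over the whole range (Dixon's 95% limit). Of 76 such groups 26 held one, 14 in Olfr2- and 12 in Olfr2+ columns, where chance gives about 1 in 20 for normally distributed values. CPM is bounded at 0 and skewed to high values, so that rate does not apply here, and all 26 were high values.

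Olfr2- 4B held 5 of them: Gm28875 at 1964 CPM, A530013C23Rik at 698, D730003I15Rik at 406, Meg3 at 112 and Mirt1 at 24.1. Olfr2- 1A held Neat1 at 2431 CPM, Gm16973 at 397 and Gm26782 at 244.4, and Olfr2- 3A held Gm26785 at 244.3 CPM, Gm26772 at 138 and 1200007C13Rik at 27.0. Olfr2- 3B held Mir142hg at 527 CPM, and Olfr2- 4A held Gm26522 at 89.3 and 5031425E22Rik at 34.6.

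Among Olfr2+ columns, 2C held Meg3 at 475 CPM, 1700020I14Rik at 317 and Gm26789 at 119, 2D held Gm16973 at 48.2, and 3B held Gm26772 at 125. Column 3D held Gm20342 at 92.1 CPM, Gm26522 at 76.8 and Gm26785 at 43.9. Column 4A held Gm26917 at 14358 CPM and 1200007C13Rik at 273, and 4B held AI662270 at 288 and 5031425E22Rik at 202. The 10 Olfr2+ columns mix both depths.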

How the results depend on the processing

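For members called higher in Olfr2+, 0 in edgeR, the count was 5 with DESeq2, which left 4 members without an adjusted p. It was 1 with no low-count filter, 1 with each column as a sample and 0 to 2 with left-out samples. With DESeq2 the share of all genes was 12.5%. For these other settings the share is not given, so nothing is read from their counts. Members called lower stayed at 0 in all alternatives run. In the depth comparison, 1 higher and 1 lower became 4 and 3 with DESeq2, 0 and 2 by library totals, and 1 and 2 by column. By library totals the shares of all genes were 0.504% and 0.182%. The shares for DESeq2 and by column are not given, so nothing is read from those counts. With a sum left out, an arm holds 1 sum, and no counts are given. The share difference of -0.72 points became 0.11 in shallow columns, 0.055 without Malat1, and -1.22 to -0.457 with left-out samples. The rule would keep 58 rows at 5 CPM, 24 at 20 CPM, 20 in 8 columns and 69 in 3 columns. Sample numbers did not pair the samples (correlations 0.013 for number 3 and -0.072 for 4); with the number as a replicate block, 0 members were called either way.

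Of 387 fold changes under alternatives, for 23 members, 342 kept direction and call, 9 became calls and 36 turned sign, in 15 members; the cause was not tested. In shallow columns and with depth as a covariate, Malat1 turned to 0.51 and 0.40, 1700020I14Rik to -0.59 and -0.63, AW112010 to 0.089 and 0.011, and 4930403P22Rik to -1.36 and -1.40. By library totals, Gdap10 turned to -0.27, AI662270 to -0.12, 1810058I24Rik to -0.68 and Lncpint to -0.55. With a mean of at least 10 CPM, Neat1 was at -0.20, Xist -0.15, Gdap10 -0.62, AI662270 -0.27, 1810058I24Rik -1.11 and Lncpint -0.92. In the block Gdap10 was at -0.48 and Lncpint at -0.20. With limma-voom Gm26917 was at -1.27, AW112010 1.21 and D730003I15Rik 0.14. AW112010 was at 0.13 with DESeq2, and 1810058I24Rik at -0.38 by column. With 1 sample left out at a time, the values that crossed 0 ran from -0.43 to 0.0048 for Malat1 (positive without Olfr2+ sample 3) and from -2.58 to 1.84 for Gm28875, -2.41 to 2.06 for A530013C23Rik and -2.58 to 1.47 for D730003I15Rik (positive without Olfr2- sample 4). They ran from -0.81 to 1.81 for AW112010 (positive without Olfr2- or Olfr2+ sample 4) and from -4.27 to 1.77 for Gm16973 (positive without Olfr2- sample 1). For Gdap10 they ran from -0.26 to 3.14 and for Lncpint from -0.031 to 1.23 (negative without Olfr2+ sample 2), and for Gm26917 from -2.29 to 1.91 and for 1810058I24Rik from -0.35 to 0.77 (negative without Olfr2+ sample 4).

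Counts come from amplified cDNA of few cells, so depth does not count molecules.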

Other observations

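Per column, the number of members at 10 CPM or more was 21 to 27 in Olfr2- columns, 24 to 28 in shallow Olfr2+ columns and 12 to 26 in deep ones. The members with no deep column at 10 CPM were Mir142hg, Gm26785, Gm26870 and Gm26549. Those with no shallow Olfr2+ column at that level were 4930403P22Rik, Dubr and Gm26782, and the first 2 of them had no Olfr2- column there either.

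Ctsc, a lysosomal protease gene within which Gm26522 lies, had 149 CPM in the column where that lincRNA was highest, against a median of 518. Lyn, a kinase gene of myeloid cells within which Gm26857 lies, had 177 CPM against a median of 153.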
